A study of Zea mays with 8 samples.

Results

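The genes described here are those whose RNA difference between hda108 mutant and wild-type (WT) maize anthers changed between the mitotic and the post-meiotic stage. They were chosen by size. For each gene the hda108 minus WT difference in log2(FPKM + 1) was taken at each stage, and the post-meiotic difference was subtracted from the mitotic one. FPKM is a level in mapped fragments, scaled to transcript length and library size. Genes with a value of 2 or more in either direction were kept, which for abundant genes means that the mutant to WT ratio differed at least 4-fold between the stages. Of 39604 genes in the deposited values, 24360 reached 1 FPKM in at least 1 group, 24188 of these had a locus of at least 300 bp, and 561 met the size rule, 2.32% of the genes considered. A positive value of 2 or more was found for 88 genes (0.364%): relative to WT they stood higher in the mutant at the mitotic stage than after meiosis. A negative value of -2 or less was found for 473 genes (1.96%), which stood lower in the mutant, relative to WT, at the mitotic stage. The same 4 values per gene chose the genes and are described here, so none of these counts or values is a test.

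The groups were hda108 mitotic anthers, WT mitotic anthers, hda108 post-meiotic anthers and WT post-meiotic anthers, all from field-grown maize (Zea mays). The mutants were homozygous for an hda108 allele of the histone deacetylase gene HDA108; the labels do not say where in the gene the mutation lies. Each group had 2 libraries of ribosome-depleted total RNA from anthers pooled over several tassels, and the deposited table gives each gene 1 FPKM value for each group. The spread between the libraries of a group is thus unknown, and whether any difference below is larger than that spread could not be tested. Higher and lower refer to the listed levels only.

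Histone deacetylases remove acetyl groups from histone tails, a change usually linked to tighter chromatin and less transcription. In the anther, meiosis is followed by the release of haploid microspores, which are fed by the surrounding tapetum and later divide by mitosis to form pollen grains. Flavonoid synthesis and cell wall loosening are both active in this organ, and pathogenesis-related proteins such as chitinases and glucanases are common parts of plant defence and of development.

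The groups differed in scale, and that moved the balance between the directions. The FPKM of all genes summed to 505427 in hda108 mitotic anthers, 1284190 in WT mitotic anthers, 701133 in hda108 post-meiotic anthers and 1069800 in WT post-meiotic anthers. With every group rescaled to a sum of 1000000, 350 genes had a positive value past the threshold and 203 a negative one, and the median value of all genes was 0.59 log2 rather than 0.02. With quantile normalization the counts were 183 and 421, and the median of all genes was 0.09. HDA108 (GRMZM2G136067) had 4.30 FPKM in hda108 and 6.43 FPKM in WT at the mitotic stage, and 4.10 FPKM in hda108 and 12.3 FPKM in WT after meiosis, a value of 0.90 that did not meet the rule. Pollen markers (13 symbols matched to 14 IDs, all above 0 in every group) summed to 5583 FPKM in hda108 and 31379 FPKM in WT mitotic anthers. After meiosis they summed to 4559 FPKM in hda108 and 20961 FPKM in WT. The sums include abp1 (GRMZM2G116204), an ID matched by symbol beside ABP1 that may not be a pollen marker. It had 121 FPKM in hda108 and 81.9 FPKM in WT at the mitotic stage, and 197 FPKM and 139 FPKM after meiosis. The other IDs were below WT in the mutant at both stages. The 5 tapetum markers summed to 55.9 FPKM in hda108 and 88.0 FPKM in WT mitotic anthers, and to 85.2 FPKM and 138 FPKM after meiosis. Among them ms8 was above WT in the mutant at both stages. The 5 green tissue markers summed to 202 FPKM in hda108 and 124 FPKM in WT mitotic anthers, and to 497 FPKM and 302 FPKM after meiosis. Among them cab48 was below WT at the mitotic stage. The 6 vascular and secondary wall markers, of which up to 2 were listed at 0, summed to between 54.6 and 181 FPKM. Fewer cells of a type and less RNA per cell cannot be told apart in such samples, and the part of cell composition, or of the difference in scale, in the values below was not tested.

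With the deposited scaling, most genes with a negative value were lower in the mutant at the mitotic stage and close to WT after meiosis. Calling a genotype difference when it passed 1 on the log2(FPKM + 1) scale, a ratio of 2 for abundant genes, 253 of the 473 had this shape. A further 84 were within 1 of WT at the mitotic stage and higher in the mutant after meiosis. At both stages the mutant was below WT for 78 genes and above WT for 28, with a gap of different size, and 30 genes were lower at the mitotic stage and higher after meiosis. The 88 genes with a positive value divided more evenly. Of these, 28 were higher in the mutant at the mitotic stage alone, 22 were lower after meiosis alone, 17 were higher at the mitotic stage and lower after meiosis, 12 were lower at both stages and 9 higher at both. Over all 24188 genes the mitotic difference was above 1 for 10.4% and below -1 for 20.7%, and the post-meiotic difference for 7.31% and 12.8%. These shapes depend on the scaling. With each group rescaled to a sum of 1000000, the median mitotic difference of all genes was 1.05 rather than -0.02. The post-meiotic median was then 0.50 rather than -0.03. Of the shapes above, only the opposite ones are given again under other scalings, below.

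**Figure D1:**
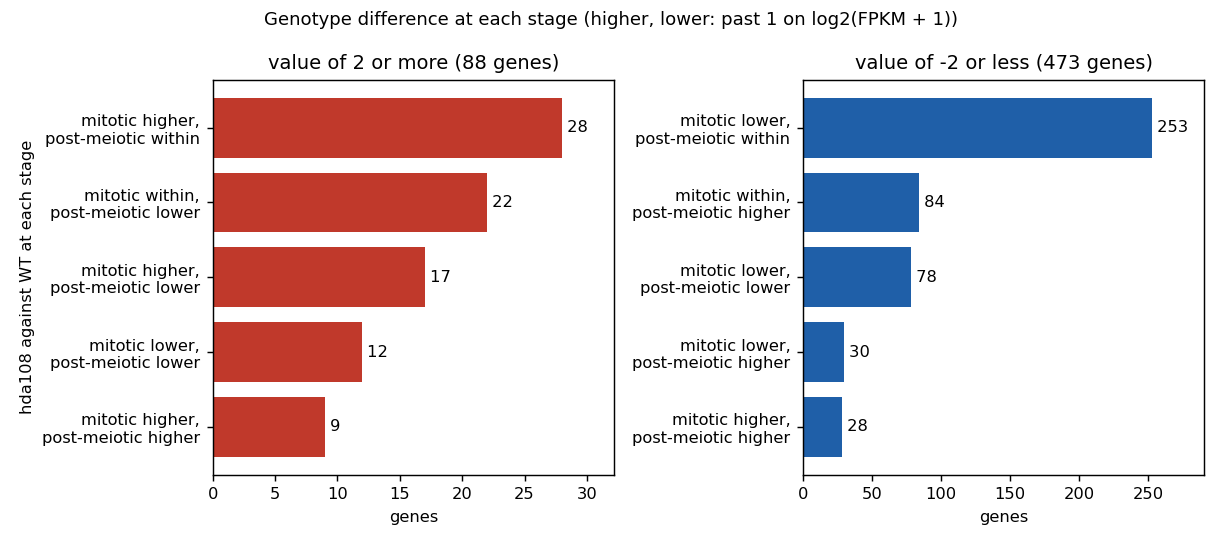
Number of genes in each class of genotype difference with the deposited scaling, with the 88 genes of positive value on the left and the 473 of negative value on the right. A difference counts as higher or lower when it passes 1 on the log2(FPKM + 1) scale and as within otherwise; the bar of 253 genes, lower at the mitotic stage and within after meiosis, is the longest.

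Shapes along development were likewise taken with the deposited scaling, and were not counted under another. These shapes, and the group farthest from the others, were counted only among the genes that met the rule. How common they are over all genes considered is thus not known. Of the genes with a negative value, 256 were lower by more than 1 at the mitotic stage in the mutant and stayed within 1 in WT. In 131 the mutant stayed within 1 while WT was higher at the mitotic stage, and in 59 the mutant was lower and WT higher. Of the genes with a positive value, 31 were within 1 in the mutant and lower at the mitotic stage in WT, 20 were higher in the mutant and within 1 in WT, and 15 were higher in the mutant and lower in WT. The group that lay farthest from the other 3 was hda108 mitotic for 206 of the 473, where it lay below them, and WT mitotic for 139, where it lay above them. In 97 hda108 post-meiotic anthers stood above the others, and in 31 WT post-meiotic anthers stood below them. Among the 88 positive genes no group led by much: 17 had hda108 mitotic anthers on top, 28 had WT mitotic anthers at the bottom, 19 had hda108 post-meiotic anthers at the bottom and 24 had WT post-meiotic anthers on top. The median FPKM of the 473 was 3.77 in hda108 and 19.3 in WT at the mitotic stage, and 13 in hda108 and 8.49 in WT after meiosis. That of the 88 was 11.8 in hda108 and 1.23 in WT at the mitotic stage, and 2.75 in hda108 and 11.6 in WT after meiosis.

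In 47 of the 561 genes (8.38%) the genotype difference was opposite at the stages and past 1 at each. Such a gene always meets the size rule, so these 47 are all genes of this shape among the 24188 considered. The most extreme was GRMZM2G051898 (chromosome 2, 34127366 to 34129396, build B73 RefGen_v3, as are all positions here), with the largest absolute value of all. It had 0.0615 FPKM in hda108 and 14.3 FPKM in WT at the mitotic stage, and 10.5 FPKM in hda108 after meiosis, where it was listed at 0 in WT. The gene was thus high in WT at the later stage and in the mutant at the earlier one, for a value of -7.37. GRMZM2G002815 (chromosome 5, 2366009 to 2366655) had the reverse order: 8.26 FPKM in hda108 and listed at 0 in WT at the mitotic stage, against 2.06 FPKM in hda108 and 22.4 FPKM in WT after meiosis, a value of 6.14. GRMZM2G410865 (chromosome 5, 2604766 to 2606348) had a like order of levels, with 11.5 FPKM in hda108 and 0.539 FPKM in WT at the mitotic stage and 1.29 FPKM in hda108 and 10.1 FPKM in WT after meiosis. It had less than 20 FPKM in every group and was singled out after its values were seen. None of these genes has a descriptive name in the files or in the RefSeq name table. With every group rescaled to a sum of 1000000, 31 of the 561 genes were opposite past 1, and with quantile normalization 60 were. Genes outside the 561 that were opposite under these scalings were not counted.

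Among genes with names and a positive value, r1, CNR3 and comt were low in hda108 post-meiotic anthers and less so at the mitotic stage. The gene r1 (listed as R-S, GRMZM5G822829, chromosome 10, 138489998 to 138498818) encodes a bHLH regulator that switches on anthocyanin genes. Its level was 28.8 FPKM in hda108 and 76.8 FPKM in WT at the mitotic stage, and 6.72 FPKM in hda108 and 168 FPKM in WT after meiosis. The mutant was 2.66-fold lower at the mitotic stage and 25.0-fold lower after meiosis, a value of 3.07. CNR3, of the cell number regulator family (GRMZM2G053387, chromosome 5, 1761261 to 1762309), had 67.7 FPKM in hda108 and 396 FPKM in WT at the mitotic stage, and 0.473 FPKM in hda108 and 86.2 FPKM in WT after meiosis. The 5.85-fold deficit at the mitotic stage compared with 182-fold after meiosis, for a value of 3.35. For comt, a caffeic acid O-methyltransferase gene of lignin synthesis (listed as CAOMT, GRMZM5G814904), the levels were 20.5 FPKM in hda108 and 51.4 FPKM in WT at the mitotic stage, and 5.10 FPKM in hda108 and 97.9 FPKM in WT after meiosis. It shares its locus with AC196475.3_FG004, whose value was -0.12, so how fragments were divided between the genes is uncertain.

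Other named genes with a positive value were higher in the mutant at the mitotic stage, as the examples below show. The heat shock and stress list as a whole did not stand on this side. Of its 29 genes 1 (dhn1) had a positive value past the threshold and 0 a negative one, 3.45% against 2.32% of all genes. In the list 18 lay below 0, with a median of -0.32, against 0.02 for all genes. With the groups rescaled it was 0.38, against 0.59 for all genes. The senescence-enhanced gene see2b (GRMZM2G093032, chromosome 3, 225910755 to 225916465) encodes a legumain-type protease. It had 56.1 FPKM in hda108 and 6.98 FPKM in WT at the mitotic stage, and 13.7 FPKM in hda108 and 17.0 FPKM in WT after meiosis. Only hda108 mitotic anthers stood apart, 8.04-fold above WT, while the mutant was 1.24-fold below WT after meiosis. The dehydrin gene dhn1, also named rab17 (GRMZM2G079440, chromosome 6, 137332062 to 137333893), which responds to drought and abscisic acid, had 38.2 FPKM in hda108 and 1.99 FPKM in WT at the mitotic stage, and 14.5 FPKM in hda108 and 4.24 FPKM in WT after meiosis. The mutant was higher at both stages, 19.2-fold and 3.42-fold. The related dehydrin gene dhn2 (GRMZM2G373522) did not meet the rule and was below WT at both stages, with a value of -1.42. GST39, a glutathione transferase gene (GRMZM2G028821), had 13 FPKM in hda108 and 0.208 FPKM in WT at the mitotic stage, and 2.23 FPKM in hda108 and 0.146 FPKM in WT after meiosis, again higher in the mutant at both stages.

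HAK5 and the terpene synthase gene listed as tps6 were also above WT in the mutant at both stages, with WT mitotic anthers as the low group. HAK5 (GRMZM2G084779, chromosome 3, 155829890 to 155835177), a high-affinity potassium transporter gene, had 48.4 FPKM in hda108 and 0.987 FPKM in WT at the mitotic stage, and 70.1 FPKM in hda108 and 18.3 FPKM in WT after meiosis. The ratio of mutant to WT was 49.1 at the mitotic stage and 3.84 after meiosis. The gene tps6 (GRMZM2G127087, whose ID the name table also gives to tps11) had 44.2 FPKM in hda108 and 0.236 FPKM in WT at the mitotic stage, and 44.5 FPKM in hda108 and 5.01 FPKM in WT after meiosis. Its mutant levels were nearly equal, and its value was 2.27. Among genes without a name, GRMZM2G081504 (chromosome 5, 33910047 to 33920991) was high in hda108 mitotic anthers alone, with 46.5 FPKM in hda108 and 1.28 FPKM in WT at the mitotic stage and 3.62 FPKM in hda108 and 1.97 FPKM in WT after meiosis. GRMZM2G071390 (chromosome 10, 58589744 to 58591011) was led by WT post-meiotic anthers, with 73.7 FPKM in hda108 and 25.2 FPKM in WT at the mitotic stage and 42.6 FPKM in hda108 and 285 FPKM in WT after meiosis. GRMZM2G478779 (chromosome 1) was nearly missing from hda108 post-meiotic anthers, with 12.1 FPKM in hda108 and 26.6 FPKM in WT at the mitotic stage and 0.0255 FPKM in hda108 and 40.9 FPKM in WT after meiosis. These genes reached similar values through different groups.

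**Figure D2:**
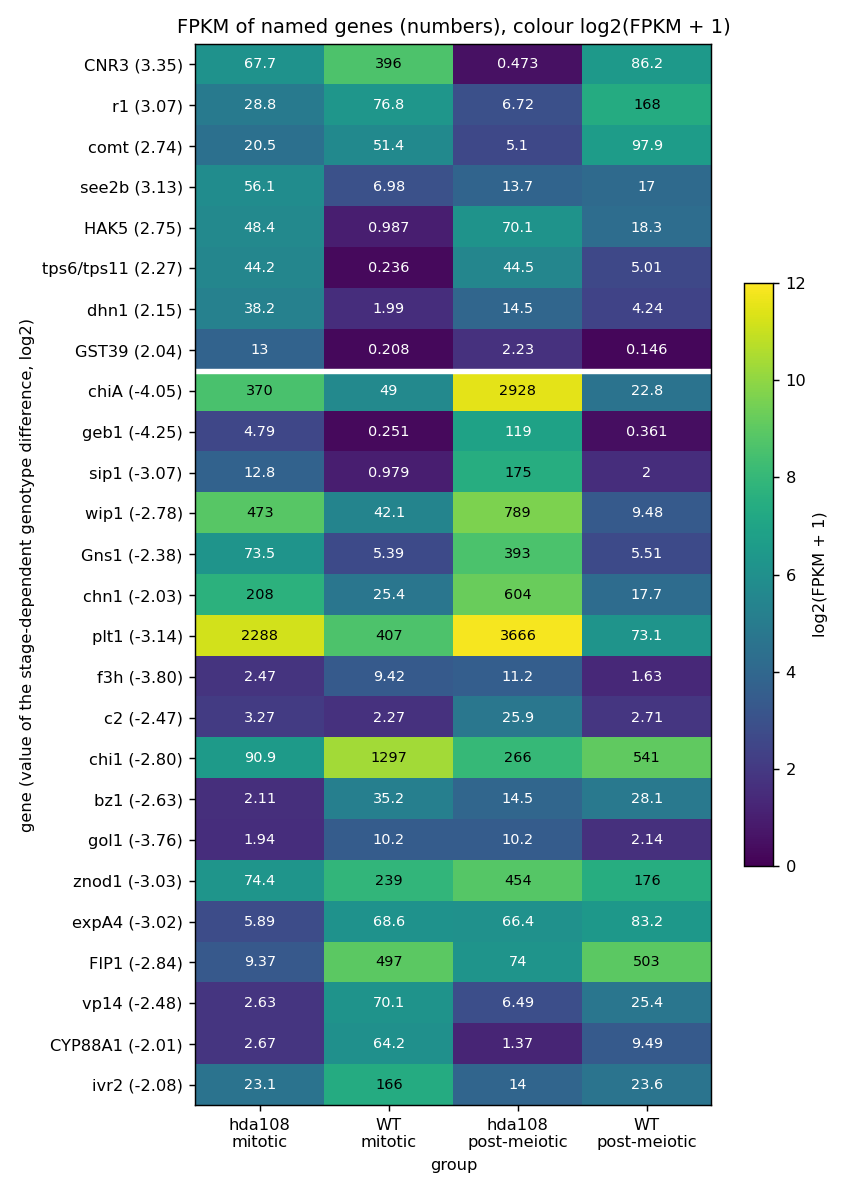
FPKM of 26 named genes in the 4 groups, with hda108 left of WT at each stage; numbers are FPKM, colour is log2(FPKM + 1) and the value of each gene stands in brackets. The 8 genes above the white line have a positive value and the 18 below it a negative one; chiA, wip1 and plt1 are brightest in the hda108 columns, and chi1 and FIP1 in the WT columns.

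With the deposited scaling and a pseudocount of 1 FPKM, defence genes had the lowest median value of the 17 gene lists; with a pseudocount of 0.1 FPKM the flavonoid median of -2.07 was below theirs of -1.65. The 6 that met the rule were above WT in the mutant at both stages, with a smaller gap at the mitotic stage. Of 15 genes of the chitinase, glucanase and pathogenesis-related list that were considered, 6 had a negative value past the threshold, 0 a positive one, and 13 lay below 0. Over all 24188 genes considered 1.96% had a negative and 0.364% a positive value past the threshold, and 11818 lay below 0. The list median was -1.68 log2, against 0.02 for all genes; with each group rescaled it was -1.31 with 4 genes past the threshold, against 0.59 for all genes, and with quantile normalization it was -1.53 with 7. The lists were drawn up with results of these data known, so these counts are not independent evidence of a direction.

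The chitinase gene chiA (GRMZM2G051943, chromosome 2, 34162588 to 34163936) was the most abundant of them. It had 370 FPKM in hda108 and 49.0 FPKM in WT at the mitotic stage, and 2928 FPKM in hda108 and 22.8 FPKM in WT after meiosis. The mutant excess was 7.56-fold at the mitotic stage and 128-fold after meiosis, a value of -4.05. The glucanase gene geb1 (GRMZM2G065585, chromosome 3, 152010337 to 152011716), whose product cleaves beta-1,3-glucans such as callose, had 4.79 FPKM in hda108 and 0.251 FPKM in WT at the mitotic stage, and 119 FPKM in hda108 and 0.361 FPKM in WT after meiosis. Its WT level was below 1 FPKM at both stages, so the value of -4.25 followed the mutant levels. Gns1, another glucanase gene (GRMZM2G125032), had 73.5 FPKM in hda108 and 5.39 FPKM in WT at the mitotic stage, and 393 FPKM in hda108 and 5.51 FPKM in WT after meiosis. WT was nearly constant here too, and the mutant was 13.6-fold and 71.3-fold higher.

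The zeamatin-like gene sip1, also named Zlp (GRMZM2G374971), of the thaumatin-like antifungal proteins, had 12.8 FPKM in hda108 and 0.979 FPKM in WT at the mitotic stage, and 175 FPKM in hda108 and 2.00 FPKM in WT after meiosis. The mutant was above WT by 13.1-fold and 87.4-fold. The chitinase gene chn1 (GRMZM2G453805) had 208 FPKM in hda108 and 25.4 FPKM in WT at the mitotic stage, and 604 FPKM in hda108 and 17.7 FPKM in WT after meiosis. For wip1, a wound-induced proteinase inhibitor gene (GRMZM2G156632, chromosome 8, 12275985 to 12276693), the levels were 473 FPKM in hda108 and 42.1 FPKM in WT at the mitotic stage, and 789 FPKM in hda108 and 9.48 FPKM in WT after meiosis. The wip1 value of -2.78 came from both genotypes, since WT was higher and the mutant lower at the mitotic stage. Not every gene of the list went this way: the pathogenesis-related gene PR-5 had 19.8 FPKM in hda108 and 0.0841 FPKM in WT at the mitotic stage and 50.2 FPKM in hda108 and 3.59 FPKM in WT after meiosis, a value of 0.78, and PR10 had a value of 0.07.

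The same shape, a larger excess in the mutant after meiosis, was seen in genes outside the defence list. The lipid transfer protein gene plt1 (GRMZM2G101958, chromosome 10, 4168397 to 4169548) was among the most abundant, with 2288 FPKM in hda108 and 407 FPKM in WT at the mitotic stage and 3666 FPKM in hda108 and 73.1 FPKM in WT after meiosis. Its excess in the mutant was 5.63-fold and 50.1-fold. No other gene of the 15 in the lipid list met the rule (6.67% did, against 2.32% of all genes). GRMZM2G700208 (chromosome 10, 33357029 to 33360934) had the largest post-meiotic genotype difference of the genes described here, with 19.1 FPKM in hda108 and 0.753 FPKM in WT at the mitotic stage and 808 FPKM in hda108 and 1.52 FPKM in WT after meiosis. It has no descriptive name. GRMZM2G090245, whose ID the name table gives to ALDH12 and mis1, had 301 FPKM in hda108 and 46.9 FPKM in WT at the mitotic stage, and 661 FPKM in hda108 and 4.80 FPKM in WT after meiosis. The aquaporin gene pip2d, listed as PIP2-4 (GRMZM2G154628), which encodes a water channel of the plasma membrane, had 5.04 FPKM in hda108 and 0.396 FPKM in WT at the mitotic stage and 21.5 FPKM in hda108 and 0.140 FPKM in WT after meiosis. HRGP, a gene of a hydroxyproline-rich cell wall glycoprotein (GRMZM2G168651), had 10.1 FPKM in hda108 and 3.35 FPKM in WT at the mitotic stage, and 34.1 FPKM in hda108 and 2.18 FPKM in WT after meiosis. In all 5 the mutant stood above WT at both stages.

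Among flavonoid genes r1 went one way and some of the enzyme genes the other. Of 13 genes of the flavonoid and anthocyanin list, 1 had a positive value past the threshold, the regulator r1, and 4 a negative one, the enzyme genes f3h, chi1, bz1 and c2, with 11 of the 13 below 0. These members were 38.5% of the list, against 2.32% of all genes, of which 11818 of 24188 lay below 0. Other regulators of the list did not meet the rule: the 2 IDs named pac1 had values of -0.28 and 0.25, and pl1 had -1.11. The pl1 level was at most 1.06 FPKM, in hda108 post-meiotic anthers, and it was listed at 0 in WT post-meiotic anthers. Its value thus says little. The list median was -1.11 log2; it was -0.68 with each group rescaled and -0.82 with quantile normalization, and under each of these 1 gene was past the threshold above 0 and 3 below it. The pseudocount moved it more: at 0.1 FPKM the median was -2.07 with 7 negative values past the threshold, and at 5 FPKM it was -0.30 with 2. The enzymes reached their values in different ways. The gene f3h (GRMZM2G062396, chromosome 2, 3561475 to 3563418), of flavanone 3-hydroxylase, had 2.47 FPKM in hda108 and 9.42 FPKM in WT at the mitotic stage, and 11.2 FPKM in hda108 and 1.63 FPKM in WT after meiosis. The mutant was 3.81-fold lower at the mitotic stage and 6.85-fold higher after meiosis. The chalcone synthase gene c2 (GRMZM2G422750), of the entry step of the pathway, had 3.27 FPKM in hda108 and 2.27 FPKM in WT at the mitotic stage, and 25.9 FPKM in hda108 and 2.71 FPKM in WT after meiosis. It stood apart in hda108 post-meiotic anthers alone, 9.56-fold above WT.

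The chalcone isomerase gene chi1 (listed as CHI, GRMZM2G155329, chromosome 1, 293118119 to 293119647) was the most abundant of the flavonoid genes and below WT in the mutant at both stages. It had 90.9 FPKM in hda108 and 1297 FPKM in WT at the mitotic stage, and 266 FPKM in hda108 and 541 FPKM in WT after meiosis, 14.3-fold and 2.04-fold lower. The gene bz1 (listed as bronze, GRMZM2G165390), of the glucosyltransferase that adds a sugar to anthocyanidins, had 2.11 FPKM in hda108 and 35.2 FPKM in WT at the mitotic stage, and 14.5 FPKM in hda108 and 28.1 FPKM in WT after meiosis. Its deficit was 16.7-fold at the mitotic stage and 1.94-fold after meiosis. The dihydroflavonol reductase gene A1, in contrast, was lower in the mutant by nearly the same amount at each stage, with 8.34 FPKM in hda108 and 48.8 FPKM in WT at the mitotic stage and 9.98 FPKM in hda108 and 54.4 FPKM in WT after meiosis, a value of -0.08. The bz1 and f3h values stayed past -2 under rescaling and quantile normalization, c2 came to -1.99 under rescaling and chi1 to -1.86 under quantile normalization.

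Genes of abscisic acid, gibberellin and sugar metabolism were among those that were lowest, relative to WT, in hda108 mitotic anthers. The gene vp14 (GRMZM2G014392, chromosome 1, 250953388 to 250956063) encodes the carotenoid-cleaving enzyme of abscisic acid synthesis. It had 2.63 FPKM in hda108 and 70.1 FPKM in WT at the mitotic stage, and 6.49 FPKM in hda108 and 25.4 FPKM in WT after meiosis. CYP88A1, the gibberellin synthesis gene dwarf3 (GRMZM2G093195, chromosome 9, 26725936 to 26729883), had 2.67 FPKM in hda108 and 64.2 FPKM in WT at the mitotic stage, and 1.37 FPKM in hda108 and 9.49 FPKM in WT after meiosis. Both were below WT at each stage, with WT mitotic anthers standing above the other groups. They were the only 2 of 25 hormone genes to meet the rule, 8% against 2.32% of all genes. The list median was -0.41, against 0.02 for all genes. With the groups rescaled it was 0.13, against 0.59 for all genes.

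The soluble invertase gene ivr2 (GRMZM2G089836), whose enzyme splits sucrose in the vacuole, had 23.1 FPKM in hda108 and 166 FPKM in WT at the mitotic stage, and 14.0 FPKM in hda108 and 23.6 FPKM in WT after meiosis. Only WT mitotic anthers stood high. AGA3b (GRMZM2G037265), an alkaline alpha-galactosidase gene, had 1.74 FPKM in hda108 and 54.6 FPKM in WT at the mitotic stage, and 8.61 FPKM in hda108 and 47.0 FPKM in WT after meiosis, so that WT was nearly level and the mutant lowest at the mitotic stage. These 2 were the members among 28 starch and sugar genes (7.14%, against 2.32% of all genes), whose median was 0.11. With each group rescaled the values of vp14, CYP88A1, ivr2 and AGA3b were -1.89, -1.29, -1.34 and -1.53, all short of the threshold, and with quantile normalization only vp14 of the 4 was past it.

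Cell wall genes that met the rule had different shapes. Of 34 genes in the cell wall and cell number list, 1 had a positive value past the threshold (CNR3) and 2 a negative one (HRGP and bk2). They were 8.82% of the list, against 2.32% of all genes. The list median was -0.45, against 0.02 for all genes. With the groups rescaled it was 0.18, against 0.59 for all genes, with 1 negative value past the threshold (bk2). The expansin gene below is not in the list and was named for the size of its value. The alpha-expansin gene expA4 (GRMZM2G445169, chromosome 5, 2275248 to 2277812), whose product loosens cell walls, had 5.89 FPKM in hda108 and 68.6 FPKM in WT at the mitotic stage, and 66.4 FPKM in hda108 and 83.2 FPKM in WT after meiosis. Of the groups only hda108 mitotic anthers were low, 11.7-fold below WT. FIP1, for which no process is given here (GRMZM2G046782, chromosome 10, 132115902 to 132117377) had 9.37 FPKM in hda108 and 497 FPKM in WT at the mitotic stage, and 74.0 FPKM in hda108 and 503 FPKM in WT after meiosis. WT was level across the stages and the mutant 53.0-fold and 6.80-fold below it. The gene bk2, brittle stalk 2, of a COBRA-like protein of secondary walls (GRMZM2G109326), was low throughout, with 0.435 FPKM in hda108 and 1.68 FPKM in WT at the mitotic stage and 5.66 FPKM in hda108 and 1.22 FPKM in WT after meiosis. It is also 1 of the 6 vascular and secondary wall markers, which summed to 54.6 FPKM in hda108 and 85.6 FPKM in WT at the mitotic stage and 174 FPKM in hda108 and 181 FPKM in WT after meiosis.

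The genes znod1 and gol1 crossed over between the stages. znod1 (GRMZM2G052562, chromosome 9, 18630211 to 18632350) had 74.4 FPKM in hda108 and 239 FPKM in WT at the mitotic stage, and 454 FPKM in hda108 and 176 FPKM in WT after meiosis. It was 3.21-fold lower in the mutant at the mitotic stage and 2.57-fold higher after meiosis. gol1 (GRMZM2G080079, chromosome 4, 182134219 to 182136764) had 1.94 FPKM in hda108 and 10.2 FPKM in WT at the mitotic stage, and 10.2 FPKM in hda108 and 2.14 FPKM in WT after meiosis, a nearly symmetric exchange. H4C13, a histone H4 gene whose ID (GRMZM2G084195) the name table also gives to a second gene, had 5.78 FPKM in hda108 and 15 FPKM in WT at the mitotic stage, and 11.5 FPKM in hda108 and 3.87 FPKM in WT after meiosis. It was the only member among 13 histone genes (7.69%, against 2.32% of all genes), whose median was -0.74, or -0.35 with each group rescaled.

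Transcription factor genes matched by the prefix of their symbol met the rule about as often as all genes did. The match is incomplete and missed the bHLH regulator r1, which had a positive value of 3.07. Of 273 matched by symbol, 5 (1.83%, against 2.32% of all genes) had a negative value past the threshold and 0 a positive one. Their median was -0.11, against 0.02 for all genes. With the groups rescaled it was 0.39, against 0.59 for all genes. Of the 5, 1 (NAC22) was past -2 with the groups rescaled, and 0 were with a pseudocount of 5 FPKM. The auxin response factor gene ARF21 (GRMZM2G390641) had 4.64 FPKM in hda108 and 71.7 FPKM in WT at the mitotic stage, and 15.5 FPKM in hda108 and 36.3 FPKM in WT after meiosis. It was below WT at both stages. NAC22 (GRMZM2G156977) had 1.40 FPKM in hda108 and 7.83 FPKM in WT at the mitotic stage, and 11.1 FPKM in hda108 and 5.94 FPKM in WT after meiosis. The related gene NAC1 (GRMZM2G336533), also of the plant NAC family, had 3.05 FPKM in hda108 and 13.4 FPKM in WT at the mitotic stage and 18.4 FPKM in hda108 and 12.9 FPKM in WT after meiosis. In both NAC genes hda108 mitotic anthers stood lowest. The dehydration-responsive factor gene dbf2 (GRMZM5G889719) had 4.91 FPKM in hda108 mitotic anthers, against 27.9 FPKM in WT mitotic, 28.0 FPKM in hda108 post-meiotic and 26.5 FPKM in WT post-meiotic anthers. The ethylene-response type factor gene EREB71 (GRMZM2G113060) instead stood out in hda108 post-meiotic anthers, with 11.6 FPKM there and 1.13 FPKM in WT after meiosis, while the mitotic levels were 2.28 FPKM in hda108 and 1.44 FPKM in WT.

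Several of the gene lists held 0 members, which at their sizes is close to the 2.32% of all genes that met the rule. None of 26 pollen maturation and pollen tube genes, 7 tapetum and pollen wall genes, 18 meiosis and cell cycle genes, 19 jasmonate genes, 15 photosynthesis genes, 25 MADS-box and inflorescence regulators or 18 histone deacetylase, DNA methylation and silencing genes met the rule with the deposited scaling. With each group rescaled, 1 pollen, 1 tapetum and 1 silencing gene had a positive value past the threshold, and with quantile normalization 3 pollen genes and 1 tapetum gene did. The medians were -0.08 for pollen, -0.22 for tapetum, 0.38 for meiosis, -0.58 for jasmonate, -0.23 for photosynthesis, 0.12 for MADS-box and 0.55 for silencing genes. With each group rescaled the pollen, tapetum and photosynthesis medians were above 0, at 0.62, 0.52 and 0.50, and the jasmonate median was -0.01. The median of all genes was then 0.59. The 17 lists together held 577 of the genes considered and 28 of the 561. List genes were matched by symbol alone, and some share only a symbol with the intended gene.

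**Figure D3:**
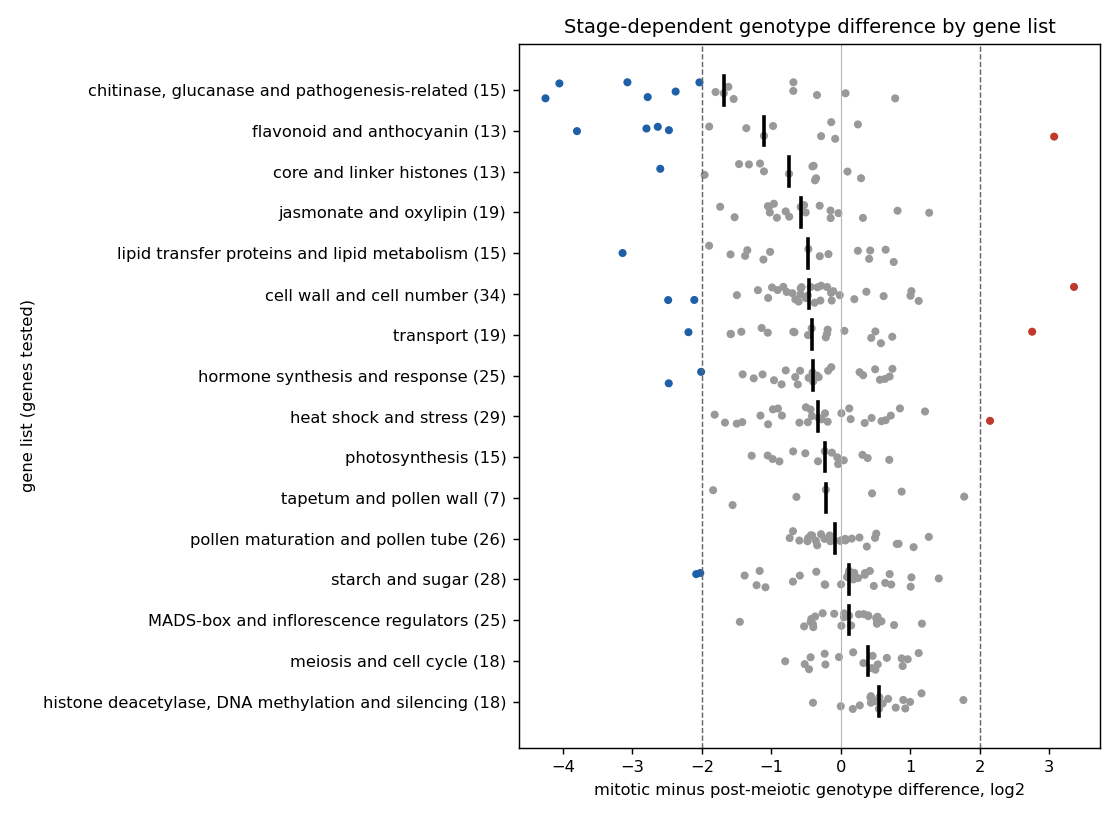
Value of each gene (horizontal axis: mitotic minus post-meiotic genotype difference, log2) in 16 gene lists, ordered by their median (black bar), with the number of genes considered in brackets; the list of 273 transcription factor genes is not drawn. Red points are past 2 and blue points past -2: the chitinase, glucanase and pathogenesis-related list has 6 blue points and a median of -1.68, and the flavonoid list 4 blue points and 1 red one.

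Other named genes with a negative value, picked as examples after their values were seen, mostly had their lowest level in hda108 mitotic anthers or their highest in WT mitotic anthers. The cysteine protease gene mir1 (GRMZM2G150276), known from insect resistance of maize, had 12.8 FPKM in hda108 and 114 FPKM in WT at the mitotic stage, and 39.3 FPKM in hda108 and 57.5 FPKM in WT after meiosis. CaM1 (GRMZM2G152891), a gene of the calcium sensor calmodulin, had 47.6 FPKM in hda108 and 541 FPKM in WT at the mitotic stage, and 134 FPKM in hda108 and 273 FPKM in WT after meiosis. PAPhy (GRMZM2G134054), of a phytase of the purple acid phosphatase type, had 49.2 FPKM in hda108 and 678 FPKM in WT at the mitotic stage, and 97.3 FPKM in hda108 and 253 FPKM in WT after meiosis. In these 3 the mutant was below WT at each stage, by more at the mitotic one. The jasmonate repressor family gene TIFY10 (GRMZM2G145458) had 11 FPKM in hda108 and 70.6 FPKM in WT at the mitotic stage and 73.3 FPKM in hda108 and 103 FPKM in WT after meiosis. AUX32 (GRMZM2G152796), of the auxin-response family, had 8.30 FPKM in hda108 and 124 FPKM in WT at the mitotic stage, and 36.4 FPKM in hda108 and 93.2 FPKM in WT after meiosis. SCR, the scarecrow root patterning gene (GRMZM2G131516), had 0.775 FPKM in hda108 and 5.30 FPKM in WT at the mitotic stage, and 2.83 FPKM in hda108 and 2.23 FPKM in WT after meiosis. Here too hda108 mitotic anthers stood lowest in each gene.

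A few examples of the same kind went the other way and stood out after meiosis. The xyloglucan-modifying enzyme gene xet1 (GRMZM2G026980) had 27.7 FPKM in hda108 and 18.6 FPKM in WT at the mitotic stage, and 47.4 FPKM in hda108 and 6.29 FPKM in WT after meiosis. The cystatin gene cc6 (GRMZM2G401328), of a protein that inhibits cysteine proteases, had 4.05 FPKM in hda108 and 4.04 FPKM in WT at the mitotic stage, and 7.92 FPKM in hda108 and 0.500 FPKM in WT after meiosis. With each group rescaled, 0 of these 8 examples were past the threshold, and with quantile normalization 6 were. For cc6 the genotypes were level at the mitotic stage and 15.8-fold apart after meiosis, and in both genes WT post-meiotic anthers stood lowest.

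The remaining genes with the largest values and at least 20 FPKM in a group have no descriptive name. GRMZM2G060967 (chromosome 3, 224223268 to 224223934) had 1.18 FPKM in hda108 and 113 FPKM in WT at the mitotic stage, and 6.41 FPKM in hda108 and 16.5 FPKM in WT after meiosis, a value of -4.47. GRMZM2G166661 (chromosome 2, 224815007 to 224816975) was found almost only in WT mitotic anthers, with 1.72 FPKM in hda108 and 55.0 FPKM in WT at the mitotic stage and 0.0342 FPKM in hda108 and 0.164 FPKM in WT after meiosis. GRMZM2G374405 (chromosome 3, 130853906 to 130854433) was led by hda108 post-meiotic anthers, with 9.65 FPKM in hda108 and 2.09 FPKM in WT at the mitotic stage and 62.5 FPKM in hda108 after meiosis, where it was listed at 0 in WT. Of these 3 with negative values, WT mitotic anthers were the high group in 2 and hda108 post-meiotic anthers in 1. AC212728.3_FG001 (chromosome 5, 2176122 to 2177270), with a positive value of 4.34, was lower in the mutant after meiosis and higher at the mitotic stage: 10.5 FPKM in hda108 and 2.44 FPKM in WT mitotic anthers, and 2.67 FPKM in hda108 and 21.2 FPKM in WT post-meiotic anthers.

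Some of the genes lay next to each other. Taking as a run members that are neighbours among the genes considered or lie within 50 kb, 65 of the 561 fell into 30 runs, 27 of them pairs. In 24 runs the values had 1 sign and in 6 both signs. Since 473 of the 561 values were negative, runs of 1 sign would be frequent wherever members lay. How many runs the same number of genes placed at random would give was not counted, so clustering was not tested. The longest run was 5 neighbouring genes on chromosome 2 between 34092700 and 34163936, which end with chiA and include GRMZM2G051898. All 5 values were negative, from -2.21 to -7.37, but the levels differed. GRMZM2G051571 was below WT in the mutant at both stages, with 0.185 FPKM in hda108 and 21.6 FPKM in WT at the mitotic stage and 1.58 FPKM in hda108 and 9.63 FPKM in WT after meiosis. GRMZM2G051921 was above WT in the mutant at both stages, with 4.97 FPKM in hda108 and 0.284 FPKM in WT at the mitotic stage and 27.7 FPKM in hda108 and 0.155 FPKM in WT after meiosis, as was chiA. GRMZM2G051912 crossed over, with 1.65 FPKM in hda108 and 5.19 FPKM in WT at the mitotic stage and 4.92 FPKM in hda108 and 1.03 FPKM in WT after meiosis.

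Other runs held genes of nearly equal level. GRMZM2G017249 and GRMZM2G017229, 634 bp apart on chromosome 5, are such a pair. The levels of GRMZM2G017249 were 271 FPKM in hda108 and 94.6 FPKM in WT at the mitotic stage, and 135 FPKM in hda108 and 197 FPKM in WT after meiosis, and those of GRMZM2G017229 were 293, 90.3, 137 and 197 FPKM in the same order of groups. The sources used here do not say how fragments of near-identical copies were counted, so these values may not be independent. Runs of both signs included GNAT32, a gene of the N-acetyltransferase family (GRMZM2G342856), with 5.22 FPKM in hda108 and 32.1 FPKM in WT at the mitotic stage and 18.0 FPKM in hda108 and 19.4 FPKM in WT after meiosis. Its value was -2.31, against 4.28 for GRMZM2G478779 28409 bp away. Across chromosomes 1 to 10, between 1.76% (chromosome 8) and 2.98% (chromosome 3) of the genes considered met the rule, with 1 of 48 mitochondrial and 0 of 23 plastid genes.

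All 5 microRNA precursors with a locus of at least 300 bp and at least 1 FPKM in a group met the rule, each with a level in 1 group and listed at 0 in the other 3. Over all genes considered 2.32% did, but here the filter and the value rest on the same 1 level. Meeting the rule is therefore no result about these precursors. MIR169c (14.3 FPKM), MIR169o (8.83 FPKM) and MIR169j (6.20 FPKM) were listed above 0 in hda108 post-meiotic anthers alone. MIR169k had 11.1 FPKM in WT mitotic anthers alone, and MIR171j had 4.22 FPKM in hda108 mitotic anthers alone. In plants miR169 targets NF-YA transcription factors and miR171 GRAS-family factors. These precursors passed the length limit through a deposited locus, between 1075 and 4531 bp long, that is shared with another gene. The host of MIR169k, GRMZM2G138693, had another order of levels, with 1.85 FPKM in hda108 and 0.130 FPKM in WT at the mitotic stage and 12.5 FPKM in hda108 and 1.68 FPKM in WT after meiosis. Of the 17 MIR169 loci 12 were listed at 0 in every group, as were 11 of 13 MIR171 loci. Left out for loci under 300 bp were MIR169i, with a value of 0.005, and MIR171g, with 6.45. MIR169i had 17.2 FPKM in hda108 and 114 FPKM in WT at the mitotic stage, and 0 and 5.36 FPKM after meiosis. MIR171g had 86.5 FPKM in WT post-meiotic anthers alone. The sources used here do not say whether counting used the strand of the reads. The origin of fragments is thus uncertain for the 5 precursors that met the rule. That also holds for the other members in a shared locus, which with these precursors make 27 of the 561.

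The members had shorter loci, more high levels and more listed zeros than all genes considered. Levels and zeros come from the same 4 values as the rule, and locus length was limited by it, so these are descriptions of the choice. The median locus length was 1500 bp, against 3434.5 bp over all 24188 genes, with 1447.5 bp for positive and 1504 bp for negative values. A level of 100 FPKM or more in some group was reached by 25.0% of the genes with a positive and 26.2% of those with a negative value, against 9.74% of all. A listed 0 in at least 1 group was found for 25.0% and 8.67%, against 2.72%. Matches to the RefSeq name table were scarcer among the positive ones, with 36.4% of their IDs, against 60.5% of the negative and 66.4% of all. Descriptive names were not, with 10.2% of the positive, 10.4% of the negative and 9.22% of all. Clone-based IDs made up 11.4%, 5.92% and 3.83% in the same order. By mean level, negative values were found for 1.75% of genes between 1 and 10 FPKM, 2.09% between 10 and 100 FPKM and 4.92% between 100 and 1000 FPKM. Of the 561, 52 were below 5 FPKM in every group.

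Some members were very abundant. GRMZM2G122762 (chromosome 3, 222705614 to 222707543) had 224 FPKM in hda108 and 1112 FPKM in WT at the mitotic stage, and 2991 FPKM in hda108 and 2371 FPKM in WT after meiosis. GRMZM2G014526 (chromosome 2, 191467610 to 191481783) had 194 FPKM in hda108 and 1400 FPKM in WT at the mitotic stage, and 1481 FPKM in hda108 and 2448 FPKM in WT after meiosis. In both, hda108 mitotic anthers were the low group, and together with plt1 they were the 3 members among 104 genes averaging 1000 FPKM or more, all with a negative value.

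The threshold falls within a continuum. Just inside it among genes with at least 5 FPKM in a group lay GRMZM2G113423 at 2.0028 and GRMZM2G057031 at 2.0132, and just outside it AC185305.3_FG003 at 1.9981 and AC198403.3_FG001 at 1.9908. On the negative side GRMZM2G039477 at -2.0001 and GRMZM5G891944 at -2.0009 were inside, and GRMZM2G117558 at -1.9998 and GRMZM2G094490 at -1.9978 outside. Another 37 of 172 genes with a locus under 300 bp were past the threshold, 15 positive and 22 negative, and were left out by the rule.

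**Figure D4:**
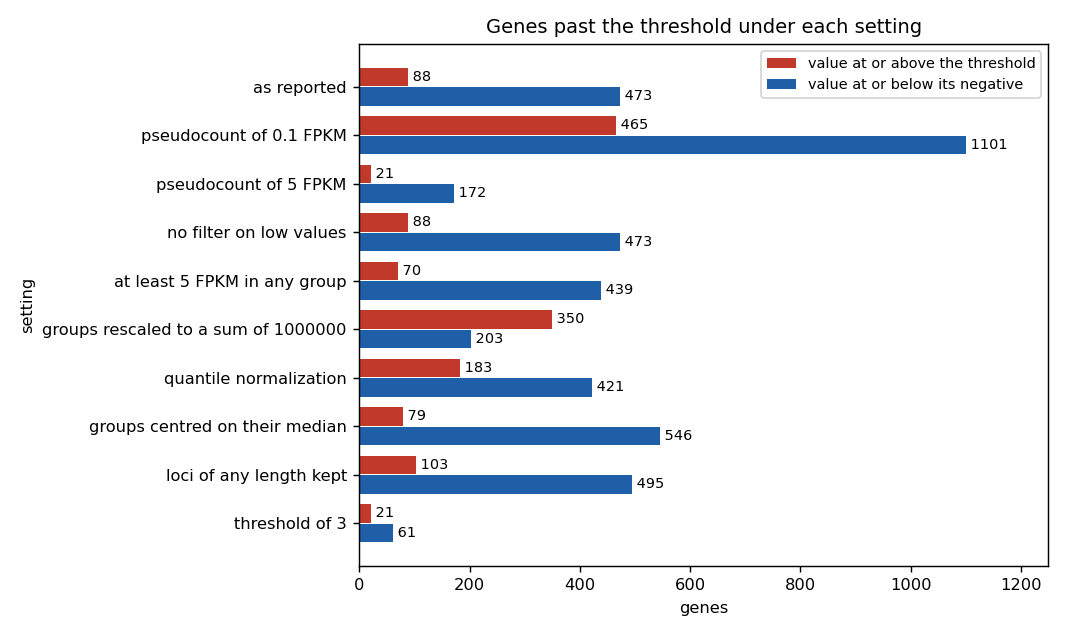
Number of genes past the threshold (horizontal axis) with the deposited values and under each other setting; red bars count positive and blue bars negative values. With each group rescaled to a sum of 1000000 the red bar (350) is longer than the blue one (203), the reverse of 88 and 473 as reported.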

How the data were processed

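RNA of 8 anther libraries, 2 for each of 4 groups, was ribosome-depleted and sequenced strand-specifically, per the labels. Per the file headers, what the authors deposited is a table of FPKM with 1 column for each group. How replicates were combined, how groups were scaled to each other and the sequencing depth are not given in the sources used here, so intervals, replicate errors and p-values could not be had. Per the submitters' processing notes, the genome build was B73 RefGen_v3 and the tools were Cuffdiff 2.2.1, Cufflinks, SAMtools, TopHat2 2.0.13, Trimmomatic 0.33 and CASAVA 1.8, whose roles and order are not given. The 2 columns headed homo were read as hda108, because the labels give no other mutant genotype.

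From these values log2(FPKM + 1) differences were computed with a pseudocount of 1 FPKM, which understates the change of low genes; folds are ratios of FPKM and were not computed where a group is listed at 0. The size rule was tried on simulated data, made from WT post-meiotic levels with a chosen noise and all groups on the same scale. The real groups differ in scale and their noise is unknown. The simulation thus does not show how the rule performs on these data. Deposited starts appear to count from 0, since 24 loci start at 0, and are printed 1 higher. Loci are spans that several genes can share. Names came from RefSeq genes of Zm-B73-REFERENCE-NAM-5.0, where 19060 of 39604 IDs matched; a pattern written with the table in view dropped names of clones and markers.

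The genes and the 17 gene lists were chosen with earlier results of these data known. Genes named are the 15 with the largest positive (only 9 had a name, of which 8 reached 5 FPKM) and the 15 with the largest negative value among members with a name and at least 5 FPKM, the 5 in each direction with at least 20 FPKM whatever the name, list members, members in runs of neighbours, and the 2 members on each side of the threshold; others are said to be chosen after their values were seen. Settings tried were other pseudocounts, filters, scalings, locus lengths and thresholds. The tools used were matplotlib 3.10.9, pandas 2.3.3, numpy 2.4.6 and Python 3.11.15.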

Additional observations from a re-analysis of the deposited data

Results flagged for a closer look

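Of the named genes, 16 had genotype differences that were opposite at the stages and past 1 at each; with 1 value per group the change was not tested. With a positive value, meaning higher in hda108 than WT in mitotic and lower in post-meiotic anthers, were GRMZM2G002815 (6.14), AC212728.3_FG001 (4.34), GRMZM2G071390 (4.22) and GRMZM2G007157 (4.09). GRMZM2G007157 (chromosome 2, 10001775 to 10005749) had 14.6 FPKM in hda108 and 1.92 FPKM in WT at the mitotic stage, and 2.12 FPKM in hda108 and 8.97 FPKM in WT after meiosis.

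With a negative value, lower in hda108 in mitotic and higher in post-meiotic anthers, were GRMZM2G051898 (-7.37), GRMZM2G404599 (-4.97), f3h (-3.80), gol1 (-3.76), GRMZM2G055054 (-3.71), GRMZM2G066428 (-3.25), GRMZM2G454514 (-3.07), znod1 (-3.03), GRMZM2G051912 (-2.76), H4C13 (-2.60), GRMZM5G805609 (-2.39) and GRMZM2G073310 (-2.38). GRMZM2G404599 (chromosome 9, 23226166 to 23226669) was listed at 0 in hda108 and had 12.7 FPKM in WT at the mitotic stage, and had 1.29 FPKM in hda108 and was listed at 0 in WT after meiosis. GRMZM5G805609, the most abundant of the unnamed ones, had 82.5 FPKM in hda108 and 197 FPKM in WT at the mitotic stage, and 175 FPKM in hda108 and 78.0 FPKM in WT after meiosis. Some of these levels were low. GRMZM2G454514 had 0.107 FPKM in hda108 and 2.37 FPKM in WT at the mitotic stage. After meiosis it had 1.77 FPKM in hda108 and was listed at 0 in WT. Its value was -0.96 with a pseudocount of 5 FPKM. GRMZM2G055054 had 2.68 FPKM in hda108 after meiosis and was listed at 0 in WT. Rescaling each group to a sum of 1000000 left 7 of the 16 opposite past 1, and quantile normalization 13.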

How the results depend on the processing

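The balance of positive and negative values depended on the settings, and of the 561 genes 1, with a pseudocount of 0.1 FPKM, changed sign under the settings run. Filters, locus length and threshold leave each value unchanged, and centring lowered all by the same small amount. Those settings thus could not change a sign. A pseudocount of 0.1 FPKM gave 465 genes with a positive and 1101 with a negative value past the threshold, and a pseudocount of 5 FPKM gave 21 and 172. Rescaling each group to a sum of 1000000 gave 350 and 203, sharing 87 of the 88 positive and 194 of the 473 negative genes as reported; quantile normalization gave 183 positive genes and shared 83 and 378. A threshold of 3 left 21 and 61. No filter on low values, a minimum of 5 FPKM, median centring and keeping short loci moved neither count by more than 1.5 times. Of the 24 genes named by rule with a positive value, 24 stayed past 2 under rescaling, quantile normalization and the low pseudocount, 19 under centring and 12 under the high pseudocount. Of the 91 with a negative value, 47, 76, 88, 91 and 33 did under those settings in that order. Centring could not bring a negative gene back over the threshold, and rescaling raised the median of all genes to 0.59. The cause of these shifts was not tested. No paired analysis was possible because the deposited values hold 1 value per group; the limma fit, the replicate block and leaving out replicates were not run for that reason. Depth is unknown, so what it limits could not be given.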
